A study of Mus musculus with 12 samples.

Results

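The protocadherins were taken as every row of the deposited expression table whose gene symbol begins with Pcdh, which gave 71 of 24132 rows. Of these, 59 belonged to the clustered families (14 alpha, 22 beta and 22 gamma rows, and the row Pcdha4-g, whose name joins alpha and gamma) and 12 were non-clustered genes. Poly(A) RNA had been sequenced from fibroblasts of the tail tip of newborn mice that were Hotair knockout, Hotair heterozygous or Hotair wild type, with 2 libraries per genotype. Hotair is a long noncoding RNA of the HoxC locus, and all cells came from a line backcrossed to C57BL6. The labels do not say whether the libraries of a genotype came from separate animals or cultures, so p-values measure the spread between libraries, which may be technical. The age of the animals is given only as neonatal, and the labels do not describe the Hotair allele itself. The series also holds H3K4me3, H3K27me3 and input ChIP-seq samples, which are not analysed here.

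Protocadherins are the largest group of the cadherin superfamily of calcium-dependent cell adhesion proteins. The alpha and gamma clusters are built from tandem variable exons, each with its own promoter, which are spliced to constant exons shared by the whole cluster, whereas each beta gene is a single exon. In neurons, promoter choice by CTCF and cohesin gives single cells different sets of isoforms that serve self-recognition. The non-clustered genes lie apart, and several of them bind intracellular partners such as phosphatase subunits, actin regulators of the WAVE complex and N-cadherin.

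Values were RPKM, reads per kilobase of exon and per 1000000 aligned reads. Depths recovered from the values were 46006225 and 48051931 reads of 37 bases in knockout, 31153190 and 33246294 in heterozygous and 27885172 and 29592806 in wild-type libraries. Hotair was listed at 0 in both knockout libraries, against 0.213 and 0.172 RPKM in heterozygous and 0.247 and 0.183 RPKM in wild-type libraries. With a floor of 3 reads over both knockout libraries, it was at least 15-fold lower than in wild type. The 10 fibroblast markers were all at 1 RPKM or more and summed to 4942 to 4964 RPKM in knockout, 5003 to 5096 in heterozygous and 5370 to 5398 in wild-type libraries, with Vim the highest. S100a4 ran against this sum, averaging 1249 RPKM in knockout, 861 in heterozygous and 798 in wild-type libraries. So did Pdgfra, at 6.38, 9.22 and 2.51 RPKM in the same order. All other fibroblast markers averaged lower in knockout than in wild type. Among markers of other cells, 6 of 10 macrophage genes reached 1 RPKM (led by Lyz2), and the list summed to 43.1 and 42.7 RPKM in knockout, 5.66 and 5.09 in heterozygous and 6.37 and 6.60 in wild-type libraries. Schwann cell markers, 6 of 10 at 1 RPKM or more and led by Ngfr, summed to 18.8 and 19.4 RPKM in knockout, 37.6 and 36.3 in heterozygous and 29.6 and 30.003 in wild-type libraries. Of these 6, Egr2 ran against the sum, averaging 2.73 RPKM in knockout, 2.13 in heterozygous and 1.84 in wild-type libraries. S100b, Mbp and Gfap, all under 1 RPKM, also averaged higher in knockout than in wild type. Neuron markers summed to 28.7 and 29.7 RPKM in knockout, 36.4 and 35.5 in heterozygous and 44.5 and 45.2 in wild-type libraries, with 4 of 10 at 1 RPKM or more and Tubb3 the highest. Of these 4, Map2 ran against the sum, averaging 1.501 RPKM in knockout, 0.904 in heterozygous and 0.712 in wild-type libraries. Of the defining neuronal genes, Rbfox3 and Snap25 were at most 0.0159 RPKM in any library. Endothelial markers summed to 16.5 to 22 RPKM, lowest in knockout libraries, with Eng the highest and Emcn and Cldn5 at 0 in every library. Keratinocyte markers (highest Perp) summed to 6.13 and 6.16 RPKM in knockout, 5.70 and 5.62 in heterozygous and 3.57 and 3.80 in wild-type libraries. Krt14 and Dsg3, both under 1 RPKM, averaged lower in knockout than in wild type. Skeletal muscle markers (highest Acta1) summed to 177 and 176 RPKM in knockout, 181 and 176 in heterozygous and 276 and 277 in wild-type libraries. Myod1 and Myf5 were at 0. Des ran against this sum, at 3.01, 0.815 and 1.14 RPKM in the same order. Myh3, Pax7 and Ckm, all under 1 RPKM, also averaged higher in knockout than in wild type. The part of these lists in the protocadherin values was not tested, and in bulk RNA fewer cells of a type and less RNA per cell cannot be told apart.

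Among the protocadherins tested, the non-clustered genes above 1 RPKM included the largest changes in either direction in knockout against wild type. The abundant gamma rows lay within a few percent of each other across genotypes. Differences were fitted with limma on log2(RPKM + 1) for 10897 genes that reached 1 RPKM in at least 2 of the 6 libraries, and a gene was called changed where the adjusted p was below 0.05. This filter kept 4 of the 12 non-clustered genes, 22 gamma rows, 2 beta genes and Pcdha4-g.

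In knockout against wild type, 3 of the 4 non-clustered genes were called higher and 1 was called lower, with a median log2 difference of 0.41. Of the 25 clustered rows tested, 1 was called higher and 3 were called lower, with a median of -0.06. Over all 10897 genes, 40.6% were called higher and 26.6% lower, and the median was 0.06. The non-clustered count rests on 4 genes. The clustered count was low in both directions beside these shares, but most of its rows are near-copies of 1 measurement, as described for the gamma cluster. With quantile normalization or median scaling, 46.7% and 47.2% of all called genes were higher in knockout than in wild type, against 60.4% as deposited.

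In heterozygous against wild type, 3 of the 4 non-clustered genes were called higher and 0 lower (median 0.40), and no clustered row was called in either direction (median -0.0020), while 35.5% of all genes tested were called higher and 17.1% lower (median 0.07). With quantile normalization or median scaling, 51.1% and 45.5% of all called genes were higher in heterozygous than in wild-type libraries, against 67.5% as deposited. In knockout against heterozygous, 2 non-clustered genes were called higher and 2 lower (median 0.01), and among the clustered rows 0 were called higher and 1 lower (median -0.06), with 26.4% of all genes called higher and 25.4% lower (median -0.0014). The 3 comparisons share their libraries in pairs and are not independent of each other.

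Among the non-clustered genes above 1 RPKM, Pcdh7 changed the most against wild type. Its isoforms bind the phosphatase catalytic subunit PP1 alpha or the phosphatase inhibitor SET. Pcdh7 (chromosome 5) had 13.6 and 13.2 RPKM in knockout libraries, 9.80 and 9.79 RPKM in heterozygous libraries, and 5.40 and 5.43 RPKM in wild-type libraries. The genotypes did not overlap, and the heterozygous level lay between the others. On the RPKM scale Pcdh7 was 2.47-fold higher in knockout and 1.81-fold higher in heterozygous than in wild-type libraries. The log2 difference was 1.17 ± 0.04 (SE) for knockout against wild type (limma, adjusted p = 4.07e-07), 0.75 ± 0.04 for heterozygous against wild type (adjusted p = 6.19e-06) and 0.42 ± 0.04 for knockout against heterozygous (adjusted p = 0.00012).

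Pcdh19, an X-linked gene that is mutated in a human epilepsy, and whose protein acts together with N-cadherin, had 12.5 and 12.3 RPKM in knockout libraries, 10.7 and 11.1 RPKM in heterozygous libraries and 7.84 and 7.82 RPKM in wild-type libraries. Its order matched that of Pcdh7, without overlap. Pcdh19 was the highest of the 12 non-clustered genes in heterozygous and wild-type libraries, and second to Pcdh7 in knockout libraries. The log2 difference was 0.60 ± 0.04 for knockout against wild type (limma, adjusted p = 7.42e-06), 0.43 ± 0.04 for heterozygous against wild type (adjusted p = 8.09e-05) and 0.17 ± 0.04 for knockout against heterozygous (adjusted p = 0.0066).

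The sex-linked transcripts differed between the same libraries. Xist, the RNA of the inactive X chromosome, had 0.0209 and 0.00606 RPKM in knockout libraries, 4.65 and 4.46 RPKM in heterozygous libraries and 0.0414 and 0.0479 RPKM in wild-type libraries. The Y-linked genes Ddx3y, Eif2s3y, Kdm5d and Uty averaged 2.87, 5.26, 2.10 and 0.895 RPKM in knockout libraries, 0.175, 0.0609, 0.00839 and 0.0262 RPKM in heterozygous libraries and 1.74, 1.92, 1.21 and 0.320 RPKM in wild-type libraries. The heterozygous libraries thus carried the RNA pattern of female cells and the others that of male cells, and for comparisons with the heterozygous group sex and genotype cannot be told apart. The part of sex in the Pcdh19 values was not tested. The other X-linked member, Pcdh11x, stayed at 0.0366 RPKM or less in every library.

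Pcdh18 encodes a protocadherin whose tail binds the adaptor Dab1. It had 2.91 and 2.72 RPKM in knockout libraries, 3.15 and 3.35 RPKM in heterozygous libraries and 2.23 and 2.36 RPKM in wild-type libraries. Here the heterozygous libraries were the highest and the wild-type libraries the lowest, without overlap. The log2 difference was 0.21 ± 0.05 for knockout against wild type (limma, adjusted p = 0.0087), 0.37 ± 0.05 for heterozygous against wild type (adjusted p = 0.00111) and -0.15 ± 0.05 for knockout against heterozygous (adjusted p = 0.0433). The knockout difference from wild type was 0.01 with quantile normalization (adjusted p = 0.908) and 0.13 with median scaling (adjusted p = 0.0511), and its adjusted p was 0.0689 without knockout library 1. The call between knockout and heterozygous was lost whichever library of these genotypes was left out (log2 difference from -0.19 to -0.12). With all 6 libraries it was lost with no filter (limma, adjusted p = 0.0929) and with a replicate block (0.0632). It was also lost with a filter of 0.1 RPKM and a pseudocount of 0.1 (limma, adjusted p = 0.0597).

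**Figure D1:**
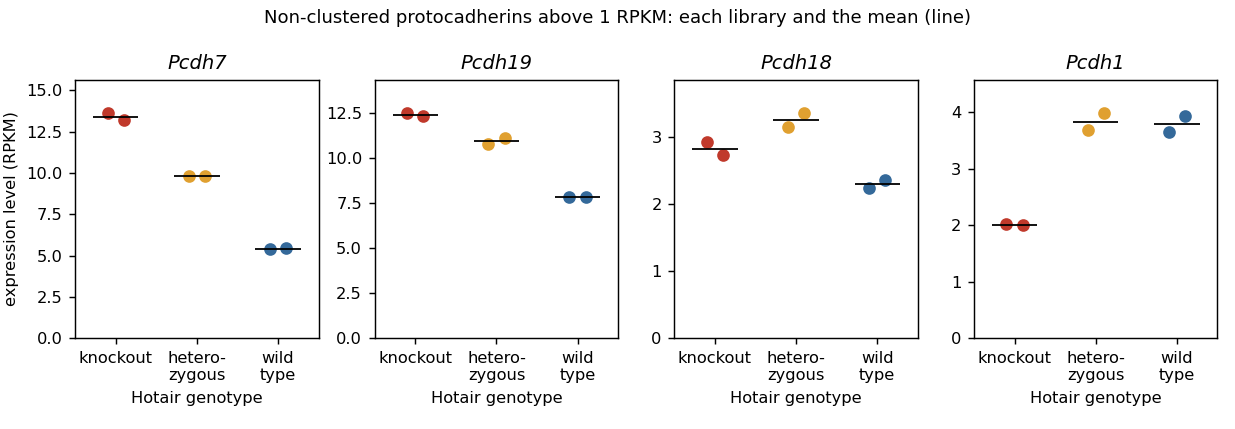
RPKM of the 4 non-clustered protocadherins above 1 RPKM in each library (dots) with the mean of the 2 libraries (lines), for Hotair knockout, heterozygous and wild type. Pcdh7 and Pcdh19 descend across the 3 genotypes from knockout (13.4 and 12.4 RPKM on average) to wild type (5.42 and 7.83 RPKM), Pcdh18 is highest in heterozygous libraries, and Pcdh1 is low in the knockout libraries alone.

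The promoter windows of the 3 non-clustered genes that were higher in both knockout and heterozygous than in wild-type libraries are shown because these genes were called together in both comparisons. Each run is the 250 bases upstream of the RefSeq gene start in GRCm38.p6, 5′ to 3′ on the gene's strand, at chr5:57717831-57718080 (plus strand) for Pcdh7, chrX:133688994-133689243 (minus strand) for Pcdh19 and chr3:49757317-49757566 (minus strand) for Pcdh18. Capitals mark the letters GGGCGG (the core of a GC box) and CCAAT, or their reverse complements, searched on both strands.
Pcdh7: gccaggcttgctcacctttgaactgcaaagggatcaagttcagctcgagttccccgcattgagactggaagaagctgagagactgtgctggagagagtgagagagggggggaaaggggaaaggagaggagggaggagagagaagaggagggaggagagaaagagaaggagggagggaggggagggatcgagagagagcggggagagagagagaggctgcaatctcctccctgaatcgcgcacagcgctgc
Pcdh19: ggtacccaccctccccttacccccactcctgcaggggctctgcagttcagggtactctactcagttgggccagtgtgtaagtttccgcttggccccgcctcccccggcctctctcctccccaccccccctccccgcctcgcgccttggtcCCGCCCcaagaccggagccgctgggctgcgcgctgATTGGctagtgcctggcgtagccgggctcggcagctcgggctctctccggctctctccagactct
Pcdh18: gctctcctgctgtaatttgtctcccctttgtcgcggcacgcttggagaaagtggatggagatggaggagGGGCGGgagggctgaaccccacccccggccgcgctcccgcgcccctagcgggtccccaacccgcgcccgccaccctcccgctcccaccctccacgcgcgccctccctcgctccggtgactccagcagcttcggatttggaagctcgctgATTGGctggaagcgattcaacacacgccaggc
Pcdh19 and Pcdh18 each held 1 GGGCGG and 1 CCAAT match, and Pcdh7 held neither. The CCAAT match began 65 bases upstream of the start in Pcdh19 and 32 bases upstream in Pcdh18. The GGGCGG match lay 100 bases upstream in Pcdh19 and 181 bases upstream in Pcdh18. Of 32851 promoter windows of this length, 32.7% held GGGCGG and 33.8% held CCAAT, while the letters TATAAA, held by 12.4%, were in none of the 3. The windows held 7 CG pairs in Pcdh7, 16 in Pcdh19 and 23 in Pcdh18, against a median of 6 over all windows. These matches describe the letters in these windows alone.

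Pcdh1, known from the human airway epithelium, was the 1 non-clustered gene called lower in knockout. It had 2.02 and 2.00 RPKM in knockout libraries, 3.68 and 3.98 RPKM in heterozygous libraries and 3.66 and 3.93 RPKM in wild-type libraries. The knockout libraries lay below all others, while the heterozygous and wild-type values overlapped. The log2 difference was -0.67 ± 0.05 for knockout against wild type (limma, adjusted p = 2.84e-05) and -0.68 ± 0.05 for knockout against heterozygous (adjusted p = 7.48e-05), and it was 0.01 ± 0.05 for heterozygous against wild type (adjusted p = 0.87). Pcdh1 thus had an order of genotypes unlike that of Pcdh7, Pcdh19 and Pcdh18, all of which were called higher in heterozygous than in wild-type libraries.

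The other 8 non-clustered genes did not reach 1 RPKM in any library, and their values ran from 0 to 0.604 RPKM. The 3 highest were Pcdh20, Pcdh9 and Pcdh10. Pcdh20 had 0.313 and 0.287 RPKM in knockout libraries, 0.604 and 0.453 RPKM in heterozygous libraries and 0.427 and 0.411 RPKM in wild-type libraries, from 60.1 to 105 reads. Pcdh9 had 0.267 and 0.309 RPKM in knockout libraries, 0.262 and 0.214 RPKM in heterozygous libraries and 0.248 and 0.171 RPKM in wild-type libraries. Pcdh20 was lowest in knockout without overlap, and the Pcdh9 values of heterozygous and wild-type libraries overlapped.

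For genes this low, a fit with a pseudocount of 0.1 and a filter of 0.1 RPKM in at least 2 libraries was added after the values were seen, and it tested 14324 genes. The non-clustered genes tested were then 6, of which 3 were called higher and 1 lower in knockout against wild type, beside 38.5% and 21.4% of all genes. In that fit Pcdh20 differed by -0.64 ± 0.16 between knockout and heterozygous (limma, adjusted p = 0.017), and by -0.38 ± 0.16 between knockout and wild type (adjusted p = 0.0786). The Pcdh20 call was lost without knockout library 1 (adjusted p = 0.0621), knockout library 2 (0.0925) or heterozygous library 1 (0.0845). Pcdh9 differed by 0.33 ± 0.19 between knockout and wild type, which did not pass (adjusted p = 0.173).

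Pcdh10 had 0.0492 and 0.0348 RPKM in knockout libraries, 0.0153 and 0.0244 RPKM in heterozygous libraries and 0.0828 and 0.0847 RPKM in wild-type libraries, from 6.00 to 28.9 reads. It was lowest in heterozygous libraries without overlap, and it was under both filters, so no test was made. Pcdh17, Pcdh11x, Pcdh12, Pcdh8 and Pcdh15 averaged at most 0.0251 RPKM over the 6 libraries.

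The gamma cluster was by far the most abundant of the family. Its 22 rows averaged from 37.4 to 62.7 RPKM in knockout, 39.1 to 68.3 RPKM in heterozygous and 39.3 to 67.9 RPKM in wild-type libraries. All 22 rows had a lower mean in knockout than in wild type, with a median RPKM ratio of 0.956, and 7 of 22 had a higher mean in heterozygous than in wild-type libraries, with a median ratio of 0.998. In knockout against wild type 3 gamma rows were called lower and none higher, beside the 26.6% of all genes called lower. The rows of this cluster share their constant exons, so their values repeat 1 measurement many times and their counts are not counts of independent genes. On the log2 scale the median gamma difference was -0.06 in knockout against wild type as deposited; the sign of the median over all clustered rows tested turned with quantile normalization (0.02), and 22 clustered rows were called lower with median scaling.

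The 3 highest gamma rows were Pcdhgc3, Pcdhgb4 and Pcdhga10, and the 3 lowest were Pcdhga9, Pcdhga12 and Pcdhgc4. Pcdhgc3, a C-type isoform that binds Axin1 and dampens Wnt signalling, had 62.5 and 62.9 RPKM in knockout libraries, 67.8 and 68.8 RPKM in heterozygous libraries and 67.8 and 68.0 RPKM in wild-type libraries. The knockout libraries were below all others without overlap. Pcdhgc3 differed by -0.11 ± 0.02 between knockout and wild type (limma, adjusted p = 0.00233), by -0.12 ± 0.02 between knockout and heterozygous (adjusted p = 0.00271) and by 0.01 ± 0.02 between heterozygous and wild type (adjusted p = 0.774). The knockout difference from wild type was -0.03 with quantile normalization (adjusted p = 0.229). Its row was the 1 clustered row called lower in knockout against heterozygous, where 14 clustered rows were called lower once heterozygous library 1 was left out.

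Pcdhgb4 had 43.8 and 44.3 RPKM in knockout libraries, 44.3 and 46.5 RPKM in heterozygous libraries and 45.5 RPKM in both wild-type libraries. Pcdhga10 had 43.4 and 44.2 RPKM in knockout libraries, 44.3 and 46.1 RPKM in heterozygous libraries and 44.9 RPKM in both wild-type libraries. Pcdhgc4, an isoform needed for the survival of interneurons in mice, had 37.1 and 37.7 RPKM in knockout libraries, 38.2 and 40.04 RPKM in heterozygous libraries and 39.2 and 39.3 RPKM in wild-type libraries. None of these 3 rows passed the test in any comparison, and in each of them the heterozygous values straddled those of wild type. Pcdhga9 had 39.7 and 40.4 RPKM in knockout libraries, 41.1 and 43.1 RPKM in heterozygous libraries and 42.3 and 42.2 RPKM in wild-type libraries, and Pcdhga12 had 37.3 and 38.0 RPKM in knockout libraries, 38.8 and 41.0 RPKM in heterozygous libraries and 39.7 RPKM in both wild-type libraries. Pcdhgc5 (-0.08 ± 0.03, limma, adjusted p = 0.0452) and Pcdhgb7 (-0.08 ± 0.03, adjusted p = 0.0484) were the other rows called lower in knockout against wild type. Both calls were lost whichever knockout or wild-type library was left out (adjusted p from 0.0903 to 0.205), while 8 clustered rows were called lower without either heterozygous library.

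To separate the isoforms, the aligned bases of each gamma row were recovered from its RPKM and set against those of the lowest row, Pcdhgc4 in every library. The lowest row carried 97.4% to 97.7% of the reads of the median row, which shows how much of a typical gamma value is shared. Scaled to 1000000 aligned reads (CPM), Pcdhgc4 held 188 ± 2.09 CPM in knockout, 197 ± 6.59 in heterozygous and 197 ± 0.332 in wild-type libraries (SD, n = 2 each). What a row held beyond that came from outside the shared exons, and a row's own reads may be somewhat more, since the lowest row also has reads of its own. The row Pcdhgb8, which RefSeq lists as a pseudogene, was left out of these sums.

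Reads beyond the shared part were led by Pcdhgc3. It held 107 and 106 CPM in knockout libraries, 126 and 121 in heterozygous libraries and 121 in both wild-type libraries beyond the lowest row. This was 46.0% to 47.6% of the summed excess of the 21 rows in knockout, 52.0% to 54.9% in heterozygous and 54.3% to 55.3% in wild-type libraries. The knockout share of Pcdhgc3 was thus the lowest of the genotypes without overlap. Next came Pcdhgb2 and Pcdhga7. Pcdhga7 held 14.5 and 14.2 CPM in knockout libraries, 8.63 and 10.48 in heterozygous libraries and 10.03 and 9.63 in wild-type libraries. Pcdhgb2 held 14.7 and 14.0 CPM in knockout libraries, 12.2 and 13.2 in heterozygous libraries and 11.9 and 9.80 in wild-type libraries.

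The isoforms did not all go one way. Of 20 gamma rows above the lowest, 13 had a higher mean excess in knockout than in wild type, with a median ratio of 1.24 and a range from 0.644 (Pcdhga9) to 1.70 (Pcdhga10). Pcdhga10 held 10.52 and 11.4 CPM in knockout libraries, 9.16 and 7.96 in heterozygous libraries and 6.82 and 6.06 in wild-type libraries, each genotype apart from the others. Pcdhgc5 held 6.33 and 6.81 CPM in knockout libraries, 7.36 and 9.03 in heterozygous libraries and 8.91 and 9.07 in wild-type libraries. Pcdhgc3, Pcdhgc5 and 5 other rows were lower in knockout than in wild type by this measure. In heterozygous against wild type 12 of 20 rows had a higher mean (median ratio 1.05), and in knockout against heterozygous 13 of 20 (median ratio 1.07). No test was made on these differences between rows.

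**Figure D2:**
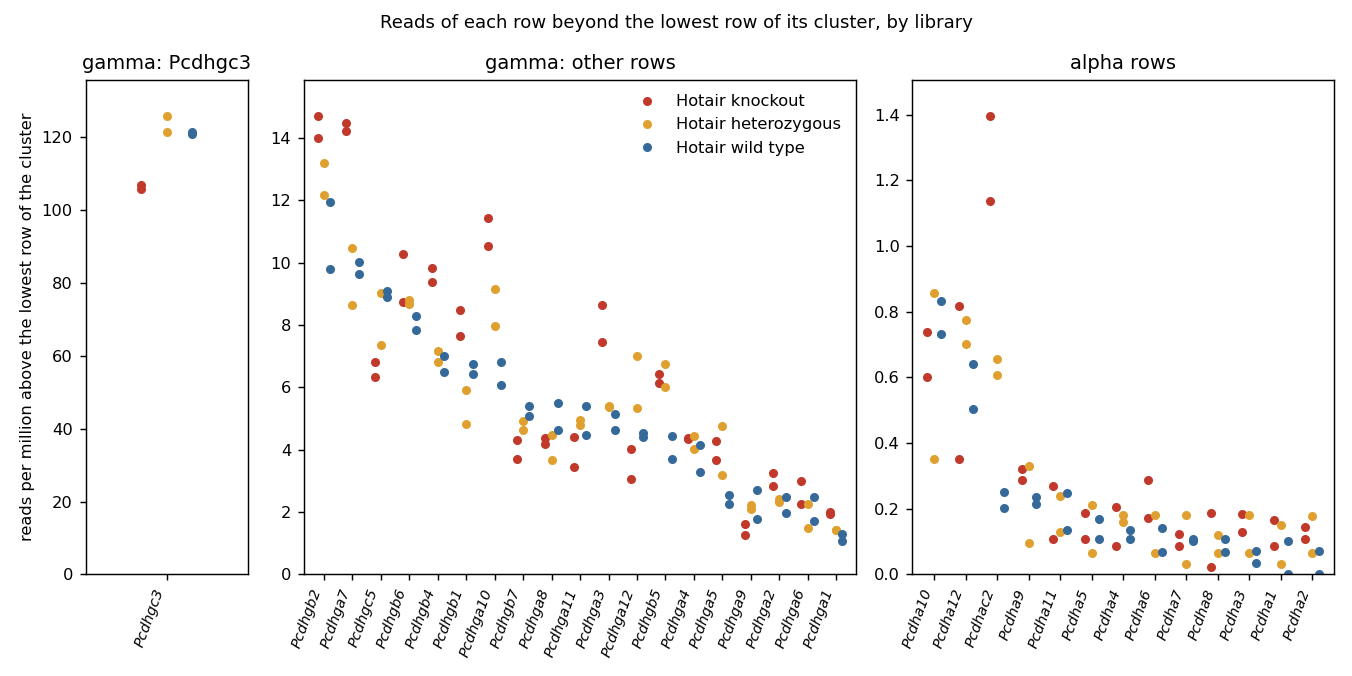
Reads per 1000000 aligned reads (CPM) of each gamma and alpha row beyond the lowest row of its cluster (vertical axes start at 0 and differ between panels), with 1 dot per library for Hotair knockout, heterozygous and wild type. Pcdhgc3 lies at 106 to 107 CPM in knockout libraries and at 121 to 126 in the others, and Pcdhac2 at 1.14 to 1.39 in knockout, 0.606 to 0.655 in heterozygous and 0.203 to 0.251 in wild-type libraries.

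The alpha cluster was expressed at low level, and its rows were highest in knockout and lowest in wild type. Its 14 rows, which lie with the beta and gamma clusters on chromosome 18, averaged from 0.611 to 0.830 RPKM in knockout, 0.503 to 0.648 RPKM in heterozygous and 0.340 to 0.493 RPKM in wild-type libraries. All 14 had a higher mean in knockout than in wild type (median RPKM ratio 1.76), in heterozygous than in wild type (1.46) and in knockout than in heterozygous libraries (1.21). None reached 1 RPKM in 2 libraries, so they entered the fit with the lower filter alone. There 14 of 14 were called higher in knockout against wild type, with a median log2 difference of 0.68. This stood beside a median of 0.12 over all 14324 genes, and of 0.36 over the 3424 genes with a mean of 0.1 to 1 RPKM, of which 38.5% were called higher.

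Of the 14 alpha rows, 13 were called higher in heterozygous against wild type (median 0.45), beside 29.7% called higher and 13.6% lower of all genes and 20.0% called higher of genes at 0.1 to 1 RPKM. In knockout against heterozygous 1 of 14 was called higher (median 0.23), beside 23.0% called higher and 19.7% lower of all genes and 19.8% called higher of genes at 0.1 to 1 RPKM. As in the gamma cluster, the rows share constant exons and amount to little more than 1 measurement. With quantile normalization, with which the median of all genes was -0.03 and not 0.12, 1 of 14 rows was called in knockout against wild type; in heterozygous against wild type 1 of 14 was called with quantile normalization or median scaling. The heterozygous count also fell to 1 without heterozygous library 1 or 2, to 2 without wild-type library 1, and to 7 and 6 without knockout library 1 and 2. The knockout libraries enter that comparison through the shared estimate of spread alone.

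The lowest alpha row, Pcdhac1 in every library (level with Pcdha2 or Pcdha1 in the wild-type libraries), is the nearest measure of the shared exons. It held 153 and 152 reads in knockout libraries, 88.3 and 83.4 in heterozygous libraries and 52.3 and 51.3 in wild-type libraries. In CPM this was 3.24 ± 0.0865 in knockout, 2.67 ± 0.0151 in heterozygous and 1.80 ± 0.0511 in wild-type libraries (SD, n = 2 each). The genotypes did not overlap, with ratios of 1.80 for knockout over wild type, 1.48 for heterozygous over wild type and 1.21 for knockout over heterozygous. The lowest row carried 93.7% to 97.7% of the reads of the median alpha row.

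The 3 highest alpha rows were Pcdha10, Pcdha12 and Pcdhac2, and the 3 lowest were Pcdha1, Pcdha2 and Pcdhac1. Pcdhac2, the C-type isoform that serotonergic neurons of mice use for axon tiling, stood apart from the rest of its cluster. Pcdhac2 had 0.842 and 0.817 RPKM in knockout libraries, 0.610 and 0.605 RPKM in heterozygous libraries and 0.363 and 0.385 RPKM in wild-type libraries. It rose by 0.97 ± 0.11 on the log2 scale in knockout against wild type (limma, adjusted p = 0.000331), by 0.58 ± 0.11 in heterozygous against wild type (adjusted p = 0.00599) and by 0.39 ± 0.11 in knockout against heterozygous (adjusted p = 0.0266). The last of these calls was lost whichever knockout or heterozygous library was left out (adjusted p from 0.0823 to 0.147).

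Beyond the lowest row, Pcdhac2 held 67.0 and 52.2 reads in knockout libraries, 21.8 and 18.9 in heterozygous libraries and 6 and 7 in wild-type libraries. In CPM the knockout mean was 5.58 times the wild-type mean, a larger ratio than that of the shared part, and it rests on 6 and 7 reads in wild type. Pcdha10 held 35.5 and 27.6 reads in knockout libraries, 28.5 and 10.97 in heterozygous libraries and 24.6 and 20.4 in wild-type libraries beyond the lowest row. In CPM, the mean excess of Pcdha10 in knockout was 0.856 of that in wild type. The values overlapped, at 0.739 and 0.601 CPM in knockout and 0.832 and 0.733 CPM in wild-type libraries. By this measure its excess was not raised along with its whole row, which was not tested. Pcdha10 differed by 0.51 ± 0.12 in knockout against wild type (limma, adjusted p = 0.00822), the smallest difference of the 14 rows, and Pcdha12 by 0.58 ± 0.11 (adjusted p = 0.00419). Pcdha1, Pcdha2 and Pcdhac1 differed by 0.71 ± 0.12, 0.72 ± 0.12 and 0.69 ± 0.12 in the same comparison (limma, adjusted p = 0.00181, 0.00198 and 0.00223).

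Pcdha10 had 0.746 and 0.743 RPKM in knockout libraries, 0.669 and 0.577 RPKM in heterozygous libraries and 0.495 and 0.490 RPKM in wild-type libraries. Pcdha12 had 0.759 and 0.694 RPKM in knockout libraries, 0.652 and 0.643 RPKM in heterozygous libraries and 0.432 and 0.471 RPKM in wild-type libraries. In both, the genotypes kept the order of the cluster without overlap. Pcdha1 had 0.636 and 0.644 RPKM in knockout libraries, 0.534 and 0.516 RPKM in heterozygous libraries and 0.356 and 0.350 RPKM in wild-type libraries. Pcdha2 had 0.618 and 0.634 RPKM in knockout libraries, 0.528 and 0.511 RPKM in heterozygous libraries and 0.329 and 0.356 RPKM in wild-type libraries. Pcdhac1 had 0.599 and 0.622 RPKM in knockout libraries, 0.501 and 0.505 RPKM in heterozygous libraries and 0.333 and 0.347 RPKM in wild-type libraries. These 3 rows also kept that order without overlap.

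The row Pcdha4-g had 17.2 and 18.1 RPKM in knockout libraries, 16.4 and 17.5 RPKM in heterozygous libraries and 17.0 and 16.2 RPKM in wild-type libraries. It did not pass in knockout against wild type (0.08 ± 0.05, limma, adjusted p = 0.15). Its level lay between those of the alpha and gamma rows, and the heterozygous values overlapped those of both other genotypes, while the knockout values lay above those of wild type.

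Beta genes are single exons and were measured one by one, although close paralogs can share reads, and the treatment of such reads is not stated. Pcdhb17 and Pcdhb22 passed the filter of 1 RPKM. Pcdhb17 had 2.33 and 2.38 RPKM in knockout libraries, 2.23 and 2.01 RPKM in heterozygous libraries and 2.01 and 2.20 RPKM in wild-type libraries, and did not pass in knockout against wild type (0.11 ± 0.06, limma, adjusted p = 0.119). Pcdhb22 had 2.10 and 2.35 RPKM in knockout libraries, 1.86 and 1.78 RPKM in heterozygous libraries and 1.45 and 1.85 RPKM in wild-type libraries. The Pcdhb22 values in knockout lay above all others, and those of heterozygous and wild-type libraries overlapped. Pcdhb22 was the 1 clustered row called higher in knockout against wild type with this filter (0.29 ± 0.08, limma, adjusted p = 0.0146). The call was lost without knockout library 2 (log2 difference 0.23) or wild-type library 1 (0.18). It was also lost with no filter (limma, adjusted p = 0.0506), with quantile normalization (0.504) and with median scaling (0.0546).

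The other 20 beta genes stayed between 0 and 0.867 RPKM, with Pcdhb1 listed at 0 in all 6 libraries. The highest of them were Pcdhb20, Pcdhb14 and Pcdhb19, which averaged 0.809, 0.848 and 0.728 RPKM in knockout, 0.801, 0.679 and 0.702 RPKM in heterozygous and 0.676, 0.632 and 0.579 RPKM in wild-type libraries. Summed over the cluster, beta reads came to 44.1 and 45.7 CPM in knockout libraries, 43.4 and 39.3 in heterozygous libraries and 32.4 and 35.5 in wild-type libraries. The sum was lowest in wild type without overlap, and the knockout values lay above those of heterozygous libraries.

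With the lower filter 20 beta genes were tested, among them Pcdhb17 and Pcdhb22, which averaged above 1 RPKM in every genotype. In knockout against wild type 9 were called higher and none lower, with a median log2 difference of 0.39. Of all 3424 genes at 0.1 to 1 RPKM, 38.5% were called higher and 244 genes were called lower, with a median of 0.36. The beta genes were therefore close to other genes of their level in this comparison. The count fell to 0 with quantile normalization and to 1 with median scaling, and to 3, 1, 3 and 5 without knockout library 1, knockout library 2, wild-type library 1 and wild-type library 2. In heterozygous against wild type 4 of 20 were called higher (median 0.29), beside 20.0% and a median of 0.21 for all genes of that level, so the count was at the background. In knockout against heterozygous 1 of 20 was called higher, Pcdhb21 (0.42 ± 0.12, limma, adjusted p = 0.0284), beside 19.8% of all genes of that level. The heterozygous count was 2 without knockout library 1, knockout library 2 or heterozygous library 1, and the Pcdhb21 call was lost without knockout library 1 (adjusted p = 0.0877), knockout library 2 (0.165) or heterozygous library 2 (0.122). Without either wild-type library, 2 beta genes were called higher in knockout against heterozygous.

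Pcdhb3, Pcdhb7 and Pcdhb15 were called higher in both knockout and heterozygous than in wild-type libraries. Pcdhb3 differed by 0.46 in knockout against wild type and by 0.47 in heterozygous against wild type. Both Pcdhb3 calls were lost with a replicate block (limma, adjusted p = 0.0535 and 0.0666), with quantile normalization (0.859 and 0.260) and with median scaling (0.169 and 0.129). Pcdhb7 had 0.414 and 0.402 RPKM in knockout libraries, 0.717 and 0.506 RPKM in heterozygous libraries and 0.258 and 0.224 RPKM in wild-type libraries, from 21.9 to 83.6 reads. The genotypes did not overlap, and heterozygous libraries were the highest. Pcdhb7 differed by 1.05 ± 0.18 in heterozygous against wild type (limma, adjusted p = 0.00368) and by 0.58 ± 0.18 in knockout against wild type (adjusted p = 0.0265). The second of these calls was lost whichever knockout or wild-type library was left out (adjusted p from 0.0515 to 0.107). Pcdhb15 had 0.585 and 0.527 RPKM in knockout libraries, 0.498 and 0.540 RPKM in heterozygous libraries and 0.287 and 0.355 RPKM in wild-type libraries, with a difference of 0.64 ± 0.14 in knockout against wild type (limma, adjusted p = 0.007, and 0.055 without knockout library 1). The Pcdhb15 difference was 0.56 ± 0.14 in heterozygous against wild type (limma, adjusted p = 0.0184), a call lost without heterozygous library 2 (adjusted p = 0.0824) or wild-type library 1 (0.073).

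The level of beta genes followed their position. The 22 genes lie along the chromosome in the order of their numbers, and their mean RPKM over the 6 libraries rose with that order (Spearman 0.69 across the 22 genes, which share all 6 libraries). The 11 genes at the Pcdhb1 end had a median level of 0.228 RPKM and the 11 at the Pcdhb22 end, which lies towards the gamma cluster, 0.597 RPKM. The log2 differences had Spearman values of either sign with that order (-0.10 for knockout against wild type, -0.41 for heterozygous against wild type and 0.26 for knockout against heterozygous, over 20 genes).

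**Figure D3:**
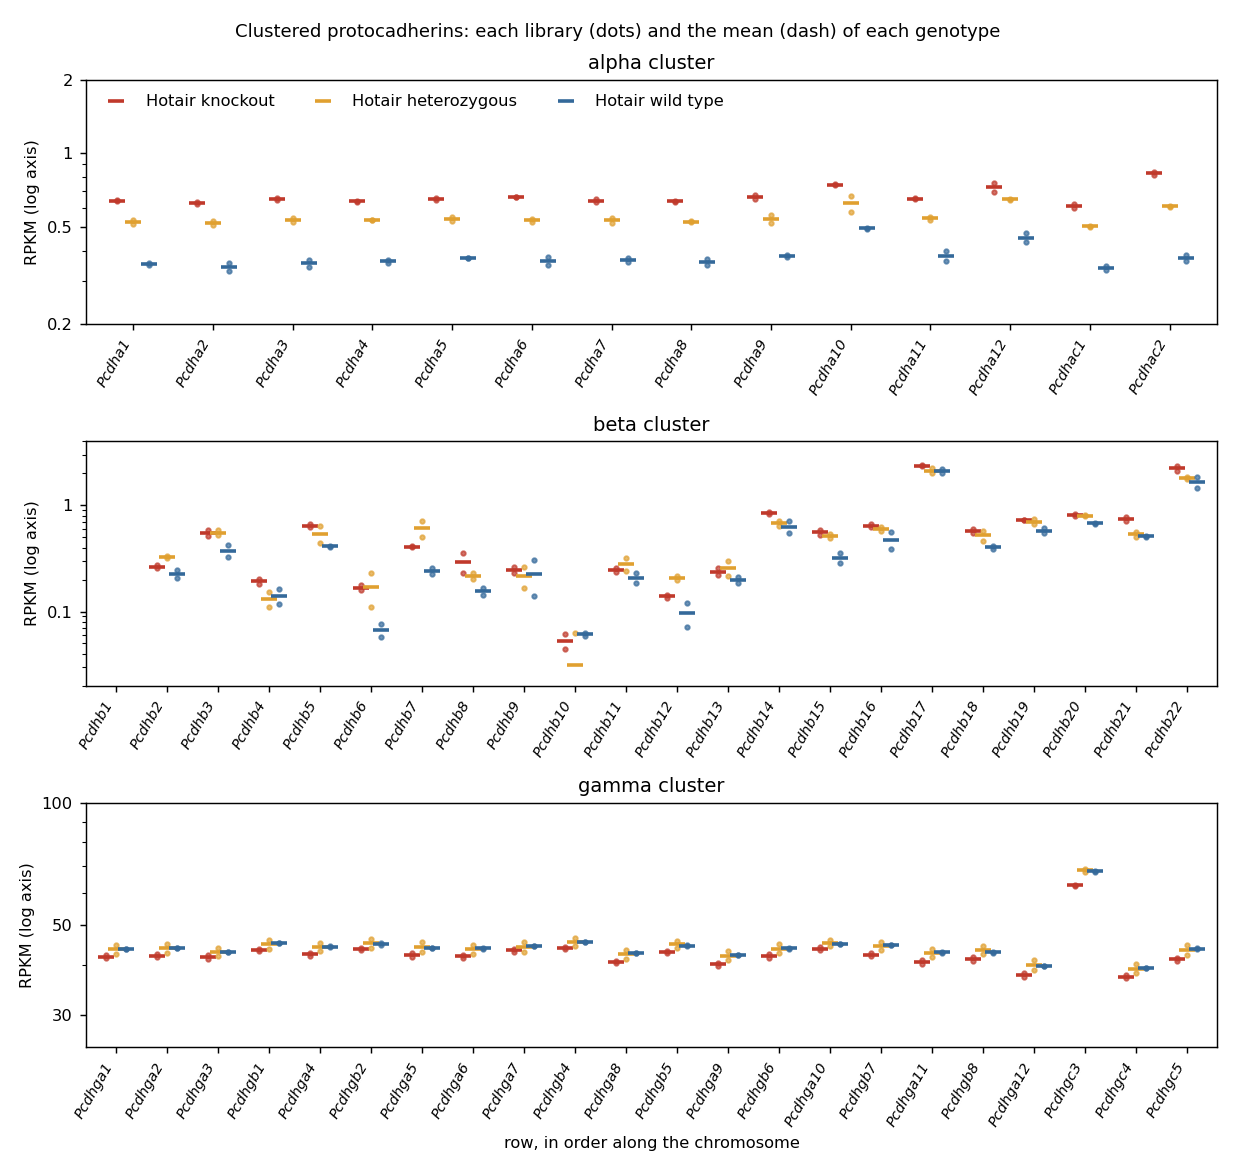
RPKM (log axes, with ranges that differ between panels) of the alpha, beta and gamma rows in their order along the chromosome, with 1 dot per library and a dash for the mean of each Hotair genotype; values of 0, such as all of Pcdhb1, cannot be drawn. Alpha rows lie at 0.611 to 0.830 RPKM in knockout and 0.340 to 0.493 RPKM in wild-type libraries, beta genes spread up to 2.35 RPKM in knockout, and gamma rows other than Pcdhgc3 form a narrow band in every genotype.

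Set side by side, the families ranged over different sizes of change. With the lower filter, the non-clustered genes ran from -0.88 ± 0.07 (Pcdh1) to 1.29 ± 0.04 (Pcdh7) in knockout against wild type, the alpha rows from 0.51 ± 0.12 (Pcdha10) to 0.97 ± 0.11 (Pcdhac2), the beta genes from 0.14 ± 0.29 (Pcdhb9) to 0.68 ± 0.26 (Pcdhb6) and the gamma rows from -0.11 ± 0.02 (Pcdhgc3) to -0.04 ± 0.03 (Pcdhga7). Pcdhb6, the beta gene with the largest difference, did not pass (limma, adjusted p = 0.0581) and had from 3.97 to 18.8 reads. No test was made of the difference between families, since the rows within them are not independent.

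**Figure D4:**
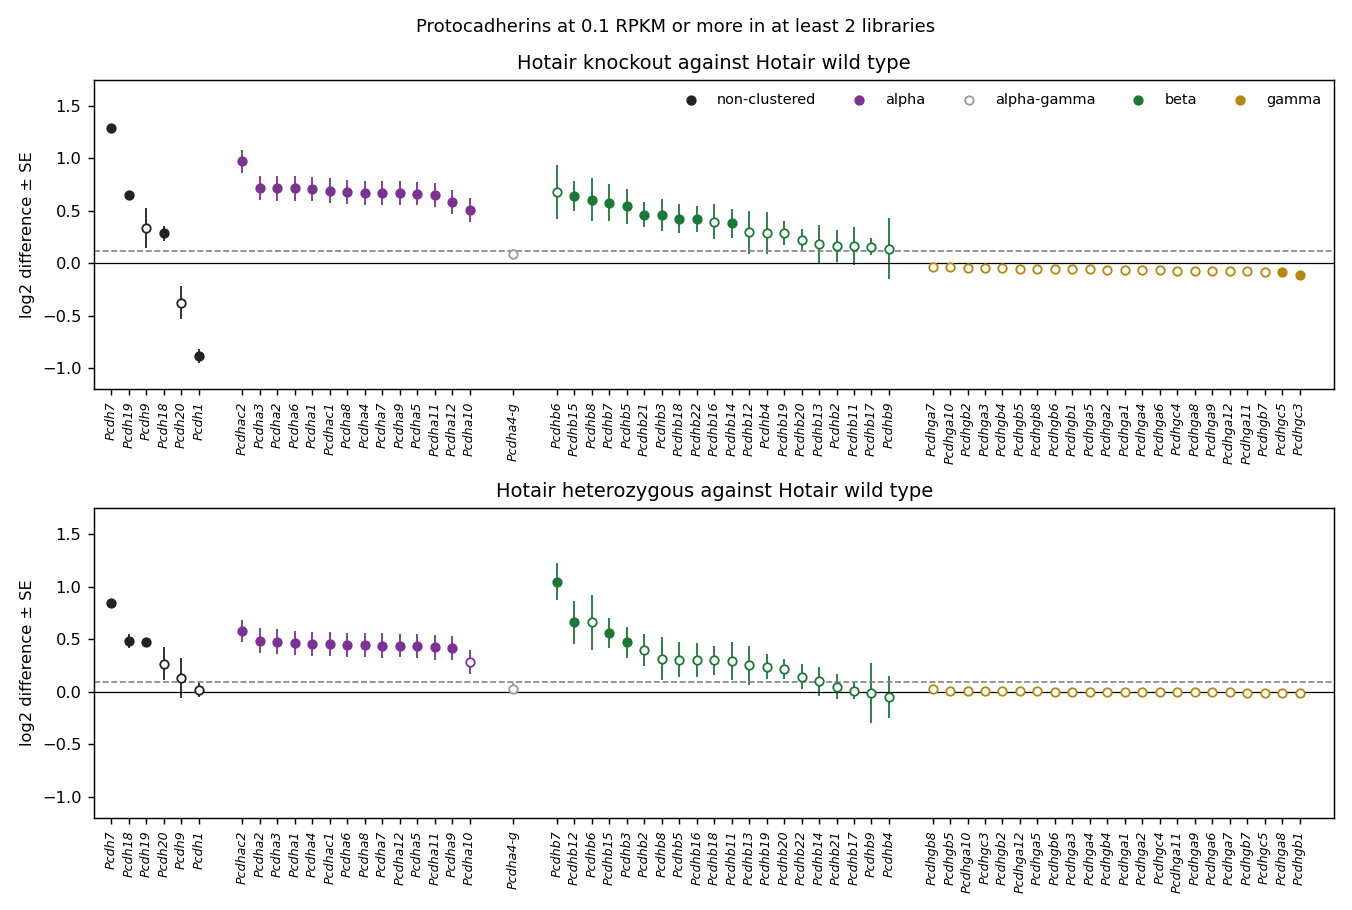
Log2 differences (± SE, pseudocount 0.1) of the protocadherins at 0.1 RPKM or more in at least 2 libraries, for Hotair knockout against wild type (top) and Hotair heterozygous against wild type (bottom), with filled symbols for adjusted p below 0.05, open symbols for the others and a dashed line at the median of all genes. Pcdh7 lies at 1.29 and 0.84, Pcdh1 at -0.88 and 0.01, the alpha rows around medians of 0.68 and 0.45, and the gamma rows near 0.

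Genes that work with protocadherins were counted by list. Of 18 listed regulators of the clusters, among them cohesin and CTCF genes, 17 were tested. Of these, 14 were called higher and 0 lower in knockout against wild type (median 0.66). Of all genes, 40.6% were called higher and 26.6% lower (median 0.06). The counts cover the whole list and were not made for its cohesin and CTCF genes alone. Stag2, Pds5a, Nipbl and Smc3, subunits, regulators or loaders of the cohesin ring, had the smallest p, with differences of 1.07 ± 0.05, 0.80 ± 0.04, 0.93 ± 0.05 and 0.91 ± 0.06. In heterozygous against wild type 12 were called higher and 1 lower (median 0.24), beside 35.5% and 17.1% of all genes, and in knockout against heterozygous 12 higher and 0 lower (median 0.38), beside 26.4% and 25.4%.

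Of 17 intracellular partners tested, 8 were called higher and 5 lower in knockout against wild type (median 0.09), beside 40.6% called higher and 26.6% lower of all genes, which is close to the background. Ppp1ca, the gene of the Pcdh7 partner PP1 alpha, averaged 160 ± 2.24 RPKM in knockout, 192 ± 2.15 in heterozygous and 197 ± 5.88 in wild-type libraries (SD, n = 2 each) and fell by 0.29 on the log2 scale in knockout against wild type, while Set rose by 0.50 ± 0.04. Ptk2b and Fyn, kinases bound or regulated by clustered protocadherins, differed by -0.75 ± 0.04 and -0.66 ± 0.04 in knockout against wild type. Against wild type, heterozygous libraries had 5 partners called higher and 2 lower, beside 35.5% and 17.1% of all genes. In knockout against heterozygous 6 were called higher and 6 lower, beside 26.4% and 25.4%.

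Of 11 classical cadherins and catenins tested, 8 were called higher and 3 lower in knockout against wild type (median 0.15), beside 40.6% and 26.6% of all genes. Cdh2, which encodes the N-cadherin that works with Pcdh19, averaged 32.9 ± 0.00575 RPKM in knockout, 36.9 ± 1.23 in heterozygous and 25.5 ± 0.218 in wild-type libraries (SD, n = 2 each), and differed by 0.35 ± 0.03 in knockout against wild type. Cdh18 differed by 1.67 ± 0.06, Jup by -0.48 ± 0.03 and Ctnnd1 by -0.35 ± 0.02 in the same comparison. Counts in heterozygous against wild type were 5 higher and 4 lower, beside 35.5% and 17.1% of all genes, and in knockout against heterozygous 4 and 4, beside 26.4% and 25.4%. Of 3 large or other members of the cadherin superfamily tested, all were called higher in knockout against wild type, where 40.6% of all genes were. They were Fat4 (1.33 ± 0.04), Clstn1 (0.13 ± 0.04) and Fat1 (0.08 ± 0.02). All 3 were also called higher in heterozygous against wild type, beside 35.5% of all genes, and 1 was called higher and 1 lower in knockout against heterozygous, beside 26.4% and 25.4%.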

How the data were processed

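Polyadenylated RNA of 6 libraries (2 each of Hotair knockout, heterozygous and wild-type fibroblasts) was analysed. Libraries kept the strand by a dUTP protocol, per the labels' protocols, and TopHat and mm9 are named in the submitters' processing notes; for the counting method, any use of strand and the annotation version no source was at hand. The deposited table holds RPKM values from the authors, 1 row per symbol, with no unit in its header: the unit was identified from the values, which give whole aligned bases (length recovered for 18885 of 18888 rows above 0) and reads of 37 bases (58.7% of 19628 low totals were multiples of 37). Depths were 27885172 to 48051931 reads, so the precision of low rows differs between genotypes.

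Values were tested as log2(RPKM + 1) with limma 3.58.1 in R 4.3.3 (two-sided, 3 group means with 3 residual degrees of freedom, variances moderated along an intensity trend, Benjamini-Hochberg over all genes, threshold 0.05), after dropping genes below 1 RPKM in more than 4 of the 6 libraries. The fit with the 1 RPKM filter was run on simulated data in which few genes differed, all in knockout. The fit with the lower filter was not. In these data 40.6% of genes were called higher and 26.6% lower in knockout against wild type, so that simulation does not gauge the calls made here. Replicate libraries differed by more than counting noise, and each was kept. Their robust variance was 1.21, 1.23 and 1.16 times the counting variance in knockout, heterozygous and wild type. Mean squared deviation was 2.39, 1.85 and 1.60 times, with 81, 82 and 64 genes beyond 4 counting SDs. Across genotypes, the robust variance between libraries numbered 1 was far larger. It was 18.7 times the counting variance for knockout with wild type, 7.63 for heterozygous with wild type and 10.2 for knockout with heterozygous. Whether the 2 libraries of a genotype are technical repeats was not tested, so the p-values may measure technical spread alone. Rows named are Hotair, every protocadherin passing the filter (in full for non-clustered and beta genes, and for the 3 highest and 3 lowest alpha and gamma rows), the 3 highest under it, the 4 smallest p of each related list, the highest marker of each list and sex-linked genes; Map2, Rbfox3, Snap25, Emcn, Cldn5, Myod1, Myf5, Pcdhgc5, Pcdhgb7, Pcdhga7, Pcdhgb2, Pcdhb6, Pcdhb7, Pcdhb9, Pcdhb15 and Pcdhb21 were added after their values were seen. Pcdhb3, Krt14, Dsg3, Des, Myh3, Pax7 and Ckm were also added after their values were seen. The members and lists were chosen with earlier results of these data known. Alternatives were other pseudocounts, filters and scalings, no trend, only the 2 genotypes, a replicate block and each library left out. Chromosomes, gene order and promoters came from RefSeq (GRCm38.p6), by symbol.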

Additional observations from a re-analysis of the deposited data

How the results depend on the processing

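Pcdh7, Pcdh19 and Pcdh1 kept their calls in knockout against wild type under every alternative in which they were tested. Over the members named with the 1 RPKM filter, 612 of the repeated values kept direction and call, 29 lost the call, 30 gained it and 34 changed sign uncalled in both. With the lower filter 481 kept direction and call, 105 lost the call, 13 gained it and 27 changed sign uncalled in both. Values that turned were Pcdhgb7 and Pcdhgc5 in knockout against wild type (0.00088 and 0.0044 with quantile normalization), Pcdhgc3 in heterozygous against wild type (-0.067 with median scaling) and, with the lower filter, Pcdhb14 in knockout against wild type (-0.032 with quantile normalization). The cause of these changes was not tested.

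In knockout against wild type the values were: clustered rows called higher 1 (0 to 1 with a library left out, 20 with no filter, 0 with a filter of 5 RPKM or quantile normalization or median scaling, 23 with the lower filter), clustered rows called lower 3 (1 to 8 with a library left out, 1 with no filter or no intensity trend, 0 with quantile normalization, 22 with median scaling, 8 with only the 2 genotypes fitted), clustered median -0.057 (-0.073 to -0.049 with a library left out, 0.075 with no filter, 0.018 with quantile normalization, -0.14 with median scaling, 0.23 with the lower filter, 0.10 with the alpha and gamma clusters entered once). Likewise: non-clustered rows called higher 3 (2 to 3 with a library left out), non-clustered rows called lower 1 (1 to 1 with a library left out, 2 with no filter, 0 with a filter of 5 RPKM), non-clustered median 0.41 (0.38 to 0.43 with a library left out, 0.47 with pseudocount 0.1, 0.27 with pseudocount 5, 0.0014 with no filter, 0.88 with a filter of 5 RPKM, 0.28 with quantile normalization, 0.33 with median scaling, 0.31 with the lower filter). With the lower filter: alpha rows called higher 14 (13 to 14 with a library left out, 1 with quantile normalization), beta rows called higher 9 (1 to 8 with a library left out, 0 with quantile normalization, 1 with median scaling).

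In heterozygous against wild type the values were: clustered rows called higher 0 (0 to 0 with a library left out, 18 with no filter, 17 with the lower filter), clustered rows called lower 0 (0 to 0 with a library left out, 15 with median scaling), clustered median -0.0020 (-0.036 to 0.030 with a library left out, 0.055 with no filter, -0.077 with median scaling, 0.14 with the lower filter). Likewise: non-clustered rows called higher 3 (3 to 3 with a library left out), non-clustered rows called lower 0 (0 to 0 with a library left out, 1 with no filter), non-clustered median 0.40 (0.37 to 0.43 with a library left out, 0.48 with pseudocount 0.1, 0.24 with pseudocount 5, 0.0070 with no filter, 0.59 with a filter of 5 RPKM, 0.30 with quantile normalization, 0.32 with median scaling). With the lower filter: alpha rows called higher 13 (1 to 9 with a library left out, 1 with quantile normalization or median scaling), beta rows called higher 4 (2 to 3 with a library left out, 1 with quantile normalization or median scaling, 2 with replicate block).

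In knockout against heterozygous the values were: clustered rows called higher 0 (0 to 1 with a library left out, 11 with no filter, 1 with only the 2 genotypes fitted, 2 with the lower filter), clustered rows called lower 1 (1 to 14 with a library left out, 5 with median scaling), clustered median -0.059 (-0.093 to -0.026 with a library left out, 0.0022 with no filter, -0.0079 with quantile normalization, 0.011 with the lower filter, 0.081 with the alpha and gamma clusters entered once). Likewise: non-clustered rows called higher 2 (2 to 2 with a library left out), non-clustered rows called lower 2 (1 to 2 with a library left out, 0 with a filter of 5 RPKM, 1 with replicate block), non-clustered median 0.0069 (-0.021 to 0.034 with a library left out, 0.29 with a filter of 5 RPKM). With the lower filter: alpha rows called higher 1 (0 to 1 with a library left out, 0 with quantile normalization, 12 with no intensity trend), beta rows called higher 1 (0 to 2 with a library left out, 0 with quantile normalization).

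Replicate numbers did not pair the libraries: deviations of same-numbered libraries correlated at 0.06 (knockout and heterozygous), -0.06 (knockout and wild type) and -0.09 (heterozygous and wild type) over 10897 genes. With a replicate block, 2 beta rows were called higher in heterozygous against wild type and 1 non-clustered gene lower in knockout against heterozygous. Depth limits alpha and beta rows, which rest on 0 to 220 reads outside Pcdhb17 and Pcdhb22.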
